A study of Homo sapiens with 12 samples.

Results

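The liver X receptor (LXR) and sterol efflux genes were described across 12 RNA sequencing libraries of human liver spheroid co-cultures. They were the rows of the expression table whose symbol was NR1H2, NR1H3, ABCA1, ABCG5, ABCG8, MYLIP, LPCAT3 or SCARB1, which gave 8 genes of 16705, and all 8 passed the filter on low values that left 11713 genes for testing. The spheroids held C3A cells, a clone of the HepG2 hepatoma line that serves as a hepatocyte model, and LX-2 cells, an immortalized line of activated hepatic stellate cells. Each of 4 groups had 3 libraries: untreated at 24 h, 1% total parenteral nutrition (TPN) for 24 h, untreated at 144 h and 1% TPN for 144 h. The TPN was a bag used in patients, with glucose, a lipid emulsion, amino acids with electrolytes, and added vitamins and trace elements, and no library was made with the lipid emulsion alone. No group carried a genetic change made for the study, each cell type came from 1 line, and many spheroids were pooled per library. At 144 h the untreated libraries were the controls of the same age in culture.

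LXR alpha (NR1H3) and LXR beta (NR1H2) are nuclear receptors that bind oxysterols and related sterols, pair with a retinoid X receptor and switch on genes that remove sterol from the cell. ABCA1 loads cholesterol and phospholipid onto apolipoprotein A-I at the cell surface, and ABCG5 with ABCG8 form a heterodimer at the bile canaliculus of hepatocytes that exports cholesterol and plant sterols into bile. MYLIP (also called IDOL) marks lipoprotein receptors for degradation, LPCAT3 puts polyunsaturated fatty acids into lysophospholipids, and SCARB1 (SR-BI) takes up cholesteryl ester from high-density lipoprotein. Lipid emulsions of plant origin carry plant sterols, which is the reason these genes are of interest with TPN.

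A pair of promoter stretches is shown. The first, which ABCG5 and ABCG8 share in part, holds a core that GATA factors bind. The second, of ABCA1, holds an inexact match to the kind of element that LXR binds. RefSeq windows of 300 bases (GRCh38.p14, 250 bases before to 50 bases after a start) were matched for 7 of the 8 members, and SCARB1 was not matched. The starts of ABCG5, on the minus strand of chromosome 2, and ABCG8, on the plus strand, lay 132 bases apart and faced away from each other, so their windows shared 231 bases. The window of ABCG8, chr2:43838721-43839020 on the plus strand, and that of ABCA1, chr9:104928106-104928405 on the minus strand, are given 5′ to 3′. Capitals mark AGATAA, a core that GATA factors bind, read on the opposite strand (ABCG8), and a repeat of AGGTCA spaced by 4 bases, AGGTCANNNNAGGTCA, the kind of element that LXR binds, with up to 2 mismatches and also read on the opposite strand (ABCA1).
ABCG8: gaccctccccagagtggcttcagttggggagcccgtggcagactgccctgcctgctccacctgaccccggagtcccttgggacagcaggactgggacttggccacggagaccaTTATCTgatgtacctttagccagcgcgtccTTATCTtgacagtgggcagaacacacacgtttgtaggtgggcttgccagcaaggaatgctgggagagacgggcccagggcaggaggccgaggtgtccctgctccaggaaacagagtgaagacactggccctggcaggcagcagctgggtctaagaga
ABCA1: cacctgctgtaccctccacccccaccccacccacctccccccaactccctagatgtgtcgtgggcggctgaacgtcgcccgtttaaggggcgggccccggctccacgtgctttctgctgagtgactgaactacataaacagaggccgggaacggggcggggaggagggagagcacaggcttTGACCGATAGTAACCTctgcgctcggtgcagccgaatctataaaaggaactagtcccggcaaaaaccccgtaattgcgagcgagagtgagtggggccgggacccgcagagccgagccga
The capitals in ABCG8 began 137 and 107 bases before its start, and on the other side the same letters began 30 bases before the start of ABCG5 and at that start. With both strands searched, AGATAA was found in 10.3% of 35116 windows and at least 2 copies in 1.02%. The ABCA1 match, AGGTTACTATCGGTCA on the opposite strand, had 2 mismatches and began 69 bases before the start on the strand shown. A spaced repeat with up to 2 mismatches was found in 2.34% of all windows and an exact one in 0.0199%. None of the other windows of members (1 each for NR1H2, MYLIP, LPCAT3 and ABCG5, 1 for ABCG8 and 4 for NR1H3) held this repeat in these letters. A single AGGTCA, which 13.8% of all windows held, was found in 1 of the 4 windows of NR1H3. No motif found overlapped another.

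Expression is given as FPKM, a fragment count scaled by transcript length and by the mapped fragments of the library, as the authors deposited it, so levels of different genes are per length. Log2 fold changes are differences of mean log2(FPKM + 0.1) between groups, and the addition makes the change of a low gene smaller. P values are from limma, adjusted over all 11713 genes by the Benjamini-Hochberg method, and a call is an adjusted p below 0.05. The libraries summed to between 561657 and 583722 FPKM, Pearson correlations of log2 values within groups lay between 0.993 and 0.996, and no library stood apart. The steps of low values gave about 1.84e+07 fragments per library. At that depth MYLIP rested on between 39.3 and 92.5 fragments per library, ABCG5 on 247 to 340, ABCG8 on 307 to 672 and SCARB1 on 8300 to 9620, if the reads came from the MANE Select transcript. The counting error alone was then 16% of the lowest MYLIP value and 1.1% of the lowest SCARB1 value.

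The members split by 144 h of TPN. At 24 h, 1 of the 8 was called, ABCG8, which was lower, against 10.5% of all genes tested. At 144 h, 6 of the 8 were called, against 52.5% of all genes. The 3 that were higher, NR1H2, LPCAT3 and SCARB1, stood against 24.2% of all genes called higher, and the 3 that were lower, ABCG5, ABCG8 and MYLIP, against 28.3% called lower. NR1H3 and ABCA1 were not called at either time. In bulk libraries such as these, fewer cells of a type and less RNA per cell cannot be told apart. No member passed the second threshold, an absolute log2 fold change above 0.58, with TPN at 24 h (0.914% of all genes) or at 144 h (9.48%). The median log2 fold change of the 8 was -0.053 at 24 h and -0.051 at 144 h, beside -0.0045 and -0.018 over all genes.

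**Figure D1:**
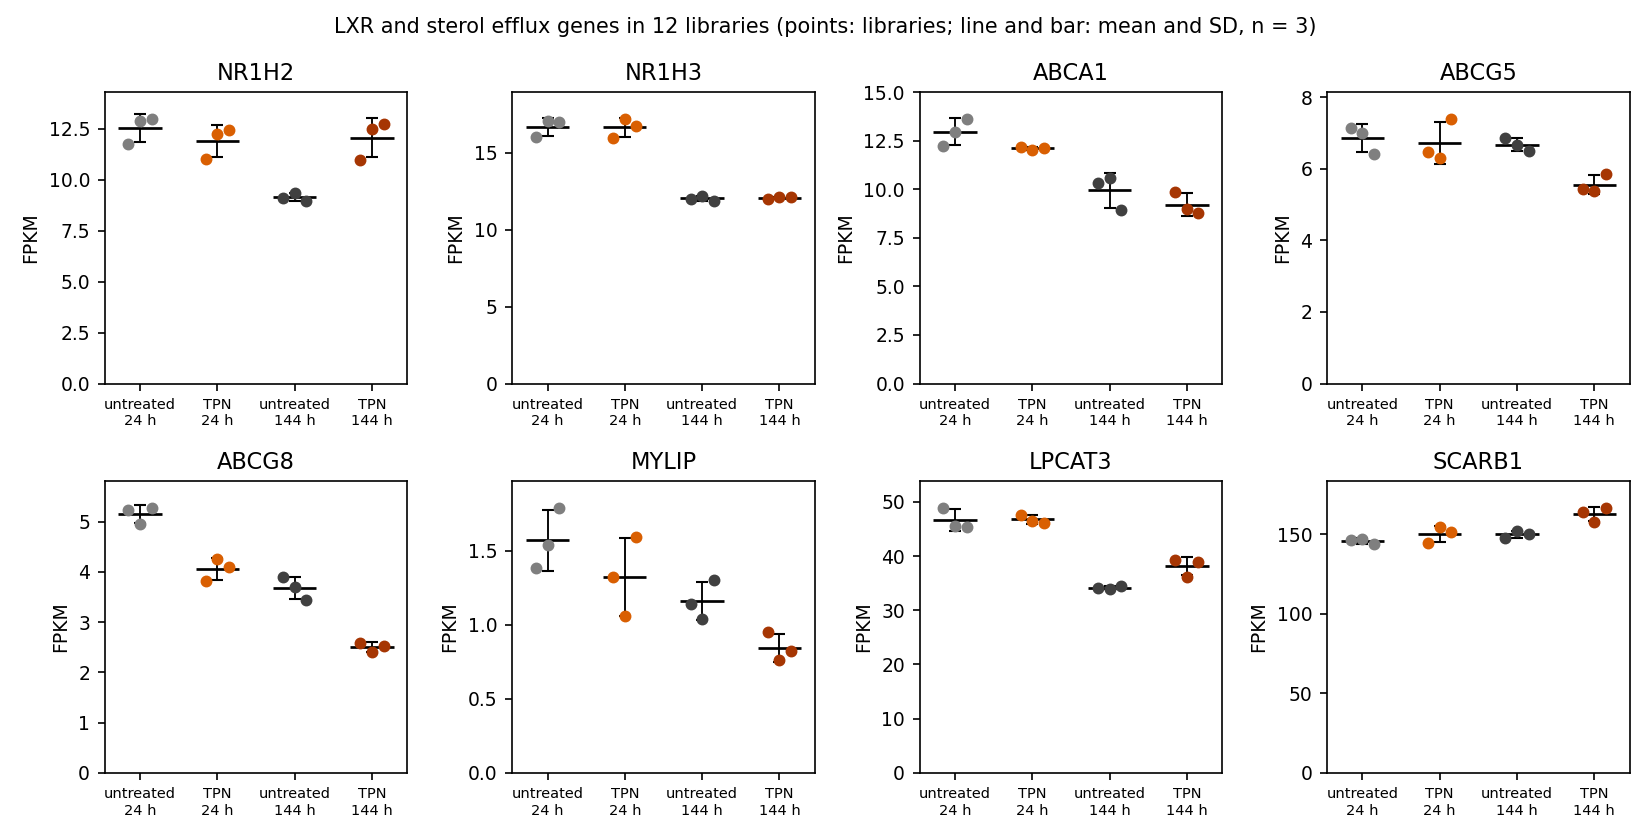
Expression (FPKM, axes from 0) of the 8 genes in each of the 12 libraries, by group, with points for libraries and the line and bar for the mean and SD of 3. ABCG8 was lower in the 3 TPN libraries than in the 3 untreated libraries at both times, while NR1H3 was at the same level with and without TPN and lower at 144 h than at 24 h.

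The groups of 3 did not overlap in 2 members at 24 h, ABCA1 and ABCG8, both lower with TPN, against 29.9% of all genes tested. At 144 h they did not overlap in the 6 members that were called, against 57.3% of all genes. An exact permutation test of 3 against 3 values cannot go below p = 0.1, the value that all of these comparisons gave (2-sided, 20 arrangements).

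**Figure D2:**
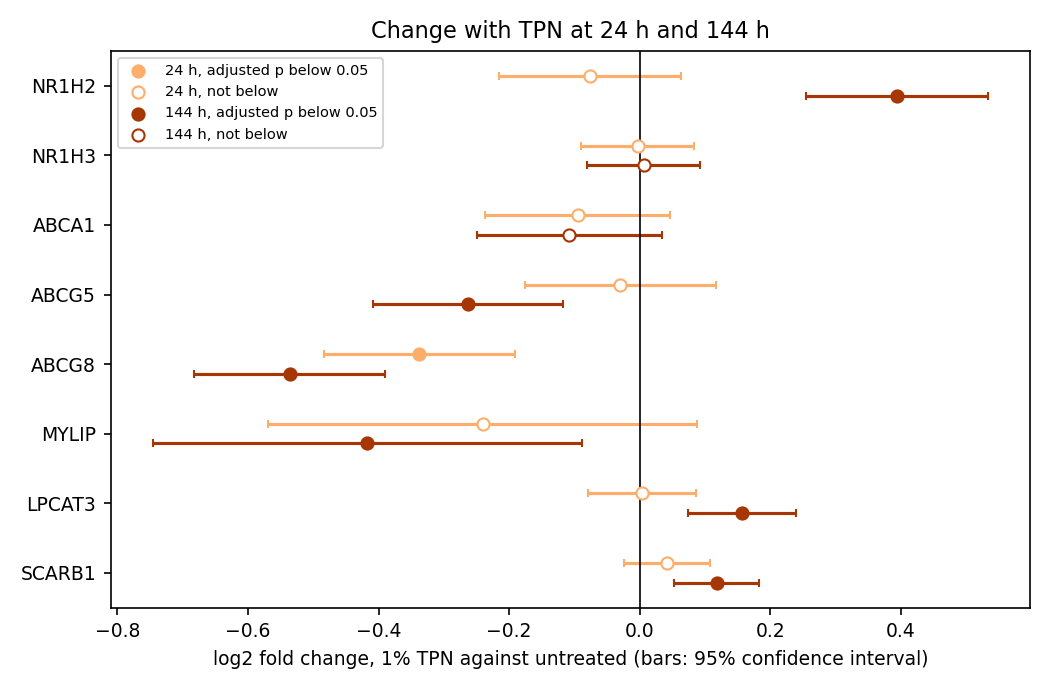
Log2 fold change of TPN against untreated for each gene at 24 h (light) and 144 h (dark), with 95% confidence intervals from limma; filled points had an adjusted p below 0.05. The intervals of NR1H2 at the 2 times did not overlap, and the interval of ABCG8 lay below 0 at both.

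Of the receptors, the expression of NR1H2 changed with TPN at 144 h. In the untreated libraries NR1H2 was 11.77, 12.89 and 13.01 FPKM at 24 h and 9.12, 9.36 and 8.96 FPKM at 144 h. In the TPN libraries it was 11.02, 12.25 and 12.47 FPKM at 24 h and 10.97, 12.50 and 12.76 FPKM at 144 h. The 3 untreated libraries at 144 h were therefore the lowest of the 12, whereas the TPN libraries of that time, at 10.97 to 12.76 FPKM, stood beside 11.02 to 13.01 FPKM over both groups at 24 h. NR1H2 was 1.31-fold higher with TPN at 144 h (log2 fold change 0.39, SE 0.065, limma adjusted p = 0.000182), and at 24 h the log2 fold change was -0.076 (adjusted p = 0.531). The change at 144 h exceeded that at 24 h by 0.47 on the log2 scale (SE 0.092, interaction adjusted p = 0.00177). Between 24 h and 144 h the untreated spheroids fell by 0.45 (adjusted p = 2.50e-05), while the difference in the TPN spheroids was 0.018 (95% confidence interval -0.12 to 0.16, adjusted p = 0.806). The median of all genes was shifted by -0.18 in both time comparisons, and with median ratio scaling and quantile normalization NR1H2 was called higher in TPN spheroids at 144 h than at 24 h (0.19 and 0.15, adjusted p = 0.0155 and 0.0468).

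NR1H3, the form of LXR enriched in liver, did not show a difference with TPN. It was 16, 17.04 and 16.98 FPKM in untreated and 15.98, 17.22 and 16.72 FPKM in TPN libraries at 24 h. After 144 h it was 12.02, 12.18 and 11.89 FPKM in untreated and 12.02, 12.14 and 12.09 FPKM in TPN libraries, and the groups overlapped at both times. The log2 fold change was -0.003 at 24 h (95% confidence interval -0.089 to 0.084) and 0.0064 at 144 h (-0.080 to 0.093). With time it fell by 0.47 in untreated and by 0.46 in TPN spheroids (adjusted p = 1.73e-07 and 1.43e-07). In a comparison chosen after the values were seen, the ratio of NR1H2 to NR1H3 within a library was 0.753 ± 0.0156 (SD, n = 3) in untreated and 0.716 ± 0.0283 in TPN spheroids at 24 h. It was 0.760 ± 0.00757 in untreated and 0.999 ± 0.0761 in TPN spheroids at 144 h, where the groups did not overlap (exact permutation p = 0.1, the smallest it can give). In GENCODE v44 the span of NR1H2 (chr19:50376457-50383987 in the table) overlaps NAPSA on the opposite strand, and that of NR1H3 (chr11:47248300-47269033) overlaps 607 bases of ACP2 on the opposite strand. The libraries were strand-specific, but whether the counting used strand is not given in the sources used here.

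ABCA1 (chr9:104781006-104928155), the LXR target whose promoter is printed, was not called with TPN at either time. It was 12.25, 12.98 and 13.65 FPKM in untreated and 12.20, 12.02 and 12.13 FPKM in TPN libraries at 24 h, a small gap with no overlap. At 144 h it was 10.33, 10.58 and 8.93 FPKM in untreated and 9.87, 8.99 and 8.77 FPKM in TPN libraries, and the groups overlapped through the third untreated library. The log2 fold change was -0.095 at 24 h (95% confidence interval -0.24 to 0.047, limma adjusted p = 0.424) and -0.11 at 144 h (-0.25 to 0.034, adjusted p = 0.186). Without the third untreated library at 144 h the value was -0.18 with an adjusted p of 0.0230. ABCA1 fell with time, by 0.38 in untreated and by 0.39 in TPN spheroids (adjusted p = 0.000136 and 8.88e-05).

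ABCG8, the partner of ABCG5 in the sterol exporter, fell with TPN at both times and was the only member called at 24 h. It was 5.23, 4.95 and 5.28 FPKM in untreated and 3.83, 4.26 and 4.09 FPKM in TPN libraries at 24 h. The levels at 144 h were 3.90, 3.70 and 3.45 FPKM in untreated and 2.59, 2.41 and 2.52 FPKM in TPN libraries. Every TPN library was below every untreated library of its time, and the untreated libraries at 144 h lay in and below the range of the TPN libraries at 24 h. ABCG8 fell by 0.34 on the log2 scale at 24 h (SE 0.068, limma adjusted p = 0.00577) and by 0.54 at 144 h (SE 0.068, adjusted p = 1.90e-05), to 0.791-fold and 0.690-fold of the untreated level. At 24 h, 5.32% of all genes tested had a larger absolute change, and at 144 h 11.8%. The difference between these changes was -0.20 (95% confidence interval -0.41 to 0.0087, interaction adjusted p = 0.138).

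ABCG5 (chr2:43806154-43838840), which starts beside ABCG8 (chr2:43831942-43882988), fell at 144 h. It was 7.15, 7.01 and 6.41 FPKM in untreated and 6.46, 6.31 and 7.41 FPKM in TPN libraries at 24 h, with overlap. At 144 h it was 6.86, 6.68 and 6.50 FPKM in untreated and 5.43, 5.37 and 5.86 FPKM in TPN libraries, with every TPN library lower. ABCG5 fell by 0.26 at 144 h (SE 0.068, limma adjusted p = 0.00511), and at 24 h the log2 fold change was -0.029 (95% confidence interval -0.18 to 0.12, adjusted p = 0.850). The interaction was -0.23 with an adjusted p of 0.0818, so a difference between the times was not called. The gene spans of ABCG5 and ABCG8 share 6924 bases on opposite strands in GENCODE v44. Their MANE Select transcripts, chr2:43812472-43838839 and chr2:43838971-43882988, do not overlap.

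**Figure D3:**
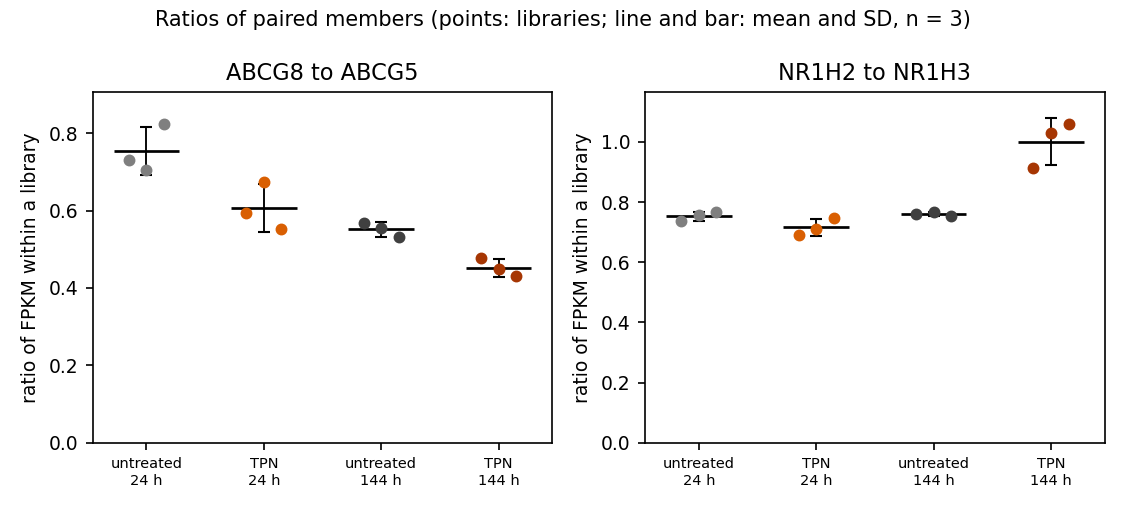
Ratio of FPKM within each library for ABCG8 to ABCG5 and NR1H2 to NR1H3 (axes from 0, points for libraries, line and bar for mean and SD of 3). The ratio of ABCG8 to ABCG5 was lower with TPN at both times, and the ratio of NR1H2 to NR1H3 was higher with TPN at 144 h.

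The ratio of ABCG8 to ABCG5 within a library, likewise chosen after the values were seen, was 0.754 ± 0.0619 (SD, n = 3) in untreated and 0.607 ± 0.0627 in TPN spheroids at 24 h. At 144 h it was 0.551 ± 0.0190 in untreated and 0.452 ± 0.0236 in TPN spheroids. The groups did not overlap at either time (exact permutation p = 0.1 for each, the smallest it can give).

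In a list of 8 tested regulators of ABCG5 and ABCG8, 3 fell with TPN at 24 h, against 10.5% of all genes called in either direction. All 8 fell at 144 h, against 28.3% of all genes called lower, with a median log2 fold change of -0.46. The weakest call was that of NR5A2, a nuclear receptor of bile acid synthesis (-0.37, limma adjusted p = 0.0455), which was lost in 11 of 21 alternative settings (highest adjusted p = 0.180). FOXO1, a forkhead factor restrained by insulin, had means of 5.81 and 4.63 FPKM in untreated and TPN spheroids at 24 h and of 6.65 and 3.68 FPKM at 144 h (log2 fold change -0.32 and -0.84, limma adjusted p = 0.00418 and 1.15e-07). NR1H4, the bile acid receptor FXR, had means of 14.5 and 10.9 FPKM at 24 h and of 15.8 and 9.04 FPKM at 144 h (-0.41 and -0.81, adjusted p = 0.00363 and 1.35e-06). NR0B2 (SHP), a repressor that FXR switches on, fell by 0.16 at 24 h (adjusted p = 0.0078) and by 0.58 at 144 h (adjusted p = 9.90e-09). The GATA factors, named here after their values were seen because their core stands in the printed window, fell at 144 h, GATA4 by 0.36 (adjusted p = 9.21e-05) and GATA6 by 0.49 (adjusted p = 0.0045), and were not called at 24 h.

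Most hepatocyte markers were also lower with TPN at 144 h. Of 8 markers, 7 were lower with TPN at 144 h, against 28.3% of all genes called lower. At 24 h 4 were lower, against 10.5% of all genes called in either direction. The medians of the 8 were -0.35 at 144 h and -0.14 at 24 h. Their summed FPKM was 11790 to 12160 in untreated and 10880 to 10910 in TPN libraries at 24 h, and 13160 to 14140 in untreated and 10250 to 10990 in TPN libraries at 144 h. ALB, albumin, had the largest fall of the 8 at 144 h, by 0.65, and SERPINA1 was not called (-0.035, limma adjusted p = 0.36). No marker of this list was near 0. Their part in the falls of ABCG5, ABCG8 and MYLIP was not tested.

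MYLIP (chr6:16126499-16152842) was the lowest and the least precise of the members. It was 1.38, 1.54 and 1.79 FPKM in untreated and 1.32, 1.06 and 1.59 FPKM in TPN libraries at 24 h, with overlap. The 144 h values were 1.14, 1.04 and 1.3 FPKM in untreated and 0.95, 0.76 and 0.82 FPKM in TPN libraries, with every TPN library lower. MYLIP fell by 0.42 at 144 h (SE 0.15, limma adjusted p = 0.0341), and at 24 h the log2 fold change was -0.24 (adjusted p = 0.374). The TPN call of MYLIP did not hold without the first or the third untreated library (adjusted p = 0.0645 and 0.120), without the second or the third TPN library (0.109 and 0.0771), and with no filter on low values (0.0547).

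Of the lipoprotein receptors that MYLIP marks for degradation, which is a step after the RNA, VLDLR and LRP8 were higher with TPN at 144 h. VLDLR, which takes up triglyceride-rich particles, was 3.90 to 4.35 FPKM in untreated and 6.55 to 6.90 FPKM in TPN libraries at 144 h (log2 fold change 0.68, SE 0.071, limma adjusted p = 3.09e-06). LRP8, a receptor for apolipoprotein E, rose at both times, by 0.49 at 24 h (adjusted p = 9.95e-05) and 0.58 at 144 h (adjusted p = 2.11e-06). The change at 144 h exceeded that at 24 h for VLDLR (interaction 0.51, adjusted p = 0.00178), and for LRP8 the difference was 0.089 (adjusted p = 0.451).

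LPCAT3 (chr12:6976185-7018508) was slightly higher with TPN at 144 h. It was 48.93, 45.58 and 45.45 FPKM in untreated and 47.67, 46.43 and 46.20 FPKM in TPN libraries at 24 h, with overlap. After 144 h the levels were 34.11, 33.96 and 34.50 FPKM in untreated and 39.36, 36.19 and 38.95 FPKM in TPN libraries, with every TPN library higher. LPCAT3 was 1.11-fold higher at 144 h (log2 fold change 0.16, SE 0.038, limma adjusted p = 0.00357), and 53.8% of all genes tested had a larger absolute change. The interaction was 0.15 with an adjusted p of 0.0474, and the call was lost in 12 of 21 alternative settings, with adjusted p values up to 0.115. In GENCODE v44 its span overlaps EMG1 and C1S on the opposite strand.

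Of 6 other lysophospholipid acyltransferases, 3 were tested. All 3 were higher with TPN at 144 h, against 24.2% of all genes called higher. LPCAT1 had means of 53.6 and 65.2 FPKM in untreated and TPN spheroids (log2 fold change 0.28, limma adjusted p = 5.57e-06), LPCAT4 of 8.04 and 11.3 FPKM (0.48, adjusted p = 0.000376) and MBOAT7 of 21.9 and 25.1 FPKM (0.20, adjusted p = 0.00175). LPCAT1 was also called at 24 h (0.12, adjusted p = 0.0295), a call lost in 7 of 22 alternative settings.

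SCARB1 (chr12:124776856-124878003) was the most abundant member and had the smallest change with TPN that was called. It was 146, 147 and 144 FPKM in untreated and 144, 154 and 152 FPKM in TPN libraries at 24 h, with overlap. At 144 h it was 147, 152 and 150.1 FPKM in untreated and 164, 158 and 167 FPKM in TPN libraries, with every TPN library higher. SCARB1 was 1.09-fold higher at 144 h (log2 fold change 0.12, SE 0.030, limma adjusted p = 0.00511), and 63.3% of all genes tested had a larger absolute change. At 24 h the log2 fold change was 0.042 (adjusted p = 0.452), and the interaction was 0.076 (adjusted p = 0.203).

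Of 8 partners of SCARB1 and high-density lipoprotein, 7 were tested. At 144 h 2 were higher and 3 lower with TPN, against 24.2% and 28.3% of all genes. CD36, a fatty acid and lipoprotein receptor of the same family, had means of 3.84 and 3.94 FPKM in untreated and TPN spheroids at 24 h and of 2.99 and 5.02 FPKM at 144 h (log2 fold change 0.73 at 144 h, limma adjusted p = 2.80e-06). SCARB2, the lysosomal member of that family, rose by 0.27 (adjusted p = 0.000105). LCAT, which esterifies cholesterol on the lipoprotein particle, fell by 0.45 (adjusted p = 2.60e-05), and at 24 h by 0.20 (adjusted p = 0.0480), a call lost in 11 of 22 alternative settings.

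Time in culture moved most members without TPN, as it did most genes tested. Between untreated spheroids at 24 h and 144 h, 6 of the 8 members were called, against 72.6% of all genes tested, and all 6 were lower, against 52.4% of all genes called lower. The median of all genes was itself shifted by -0.18 in this comparison, and that of the members was -0.43. NR1H2, NR1H3, ABCA1, ABCG8, MYLIP and LPCAT3 fell by between 0.38 and 0.47, which is 0.20 to 0.29 below the median gene. ABCG5 had a log2 fold change of -0.036 and SCARB1 of 0.041, and neither was called; the value of ABCG5 turned to 0.14 and 0.090 with median ratio scaling and quantile normalization, and SCARB1 was called higher with both (0.22 and 0.16). The fall of MYLIP, by 0.40 (adjusted p = 0.0285), was lost without the second or the third untreated library at 24 h (adjusted p = 0.0542 and 0.117) or the first or the second at 144 h (0.0631 and 0.0990), and with these 2 scalings (0.179 and 0.153).

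In TPN spheroids 7 of the 8 differed between the times, against 76.2% of all genes, SCARB1 being higher and the others lower, with NR1H2 not called. This count depended on the scaling in its members: NR1H2 was called higher with median ratio scaling and quantile normalization, and ABCG5, which fell by 0.27 (adjusted p = 0.00247), was not called with the first of these (-0.096, adjusted p = 0.213). ABCG8 fell by 0.67 and MYLIP by 0.58 here. The effect of TPN differed between the times in 2 of the 8 members, NR1H2 and LPCAT3, against 30.4% of all genes.

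Over the 12 libraries the order of mean levels was SCARB1 (152 FPKM), LPCAT3 (41.4), NR1H3 (14.4), NR1H2 (11.4), ABCA1 (11.1), ABCG5 (6.45), ABCG8 (3.85) and MYLIP (1.22). SCARB1 was above 96.8% of the genes in the table and MYLIP above 35.1%. The ranges of NR1H2 and ABCA1 overlapped in both groups at 24 h and in untreated spheroids at 144 h. The ranges of NR1H3 and NR1H2 were apart in 3 groups and overlapped with TPN at 144 h, where NR1H2 reached 12.76 and NR1H3 12.14 FPKM. The other neighbours in this order did not overlap in any group.

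For each member the gene with the highest Pearson correlation of log2 values over the 12 libraries was found, and since the points share the 4 groups the values are a description. They were ZC3H12A for NR1H2 (r = 0.953), BEND3 for NR1H3 (0.995), APOB for ABCA1 (0.986) and ARMH3 for ABCG5 (0.941). They were GASK1B for ABCG8 (0.989), CYP20A1 for MYLIP (0.962), TRAK2 for LPCAT3 (0.990) and GUK1 for SCARB1 (0.968). APOB, which carries lipid in secreted lipoproteins and is one of the hepatocyte markers, had means of 762, 684, 487 and 399 FPKM in untreated and TPN spheroids at 24 h and untreated and TPN spheroids at 144 h. GASK1B, most like ABCG8, had means of 26.7, 20.3, 18.6 and 11.7 FPKM in the same order.

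The other genes of the pathway were taken from 8 lists of 77 genes, of which 75 were in the table and 57 were tested. At 24 h 6 were higher and 8 lower with TPN, 24.6% of the tested against 10.5% of all genes. At 144 h 43 were called, 75.4% against 52.5% of all genes, with 14 higher and 29 lower (24.2% and 28.3% of all genes), and 7 passed both thresholds (9.48% of all genes). Their median log2 fold change at 144 h was -0.12, beside -0.018 over all genes.

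**Figure D4:**
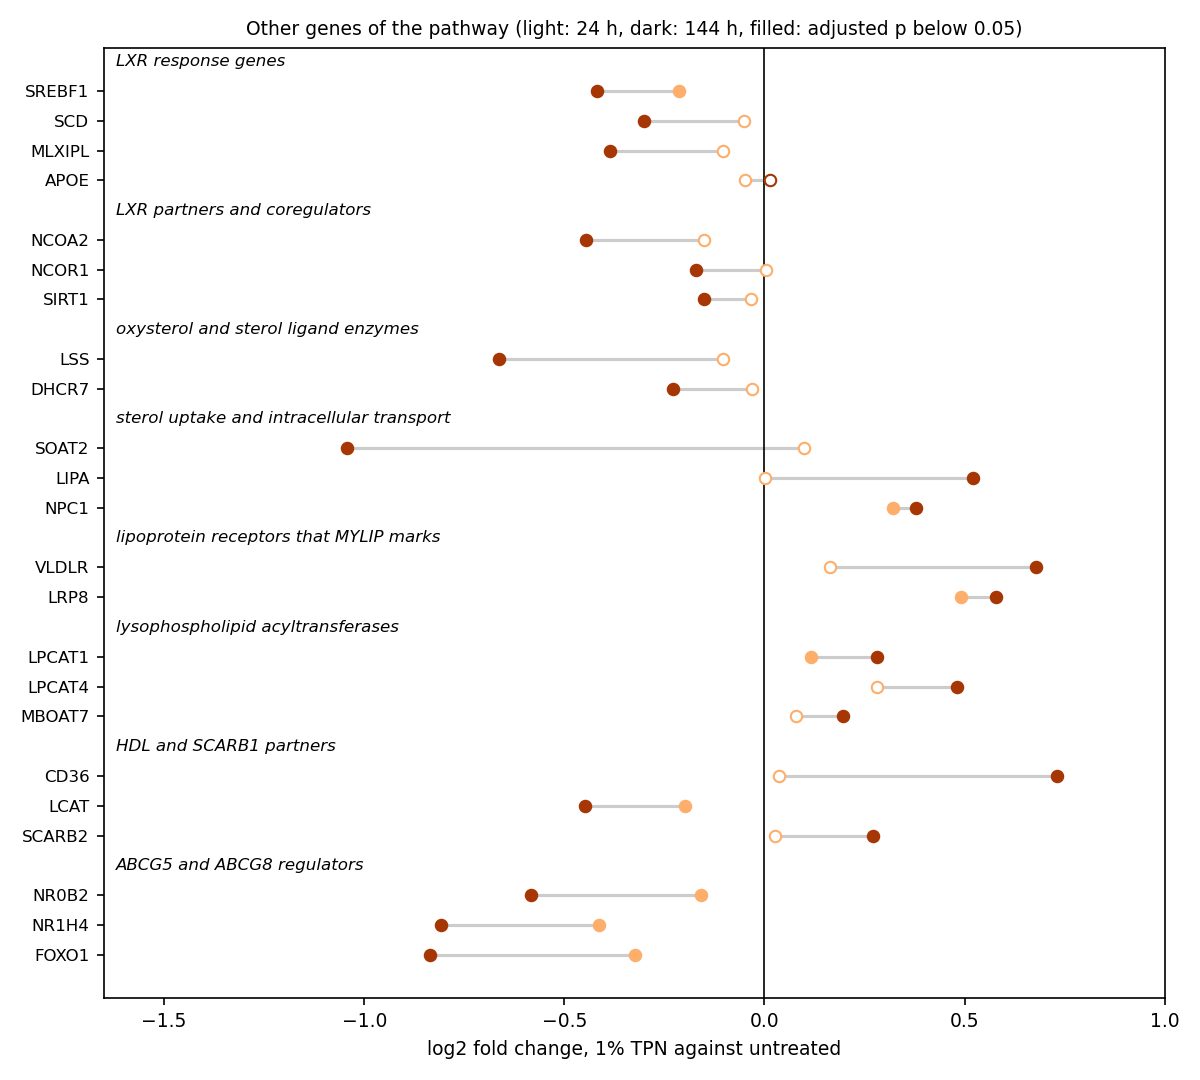
Log2 fold change of TPN against untreated at 24 h (light) and 144 h (dark) for the named genes of the 8 lists, with filled points at an adjusted p below 0.05. Genes of sterol synthesis and of ABCG5 and ABCG8 regulation lay below 0 at 144 h, and the lipoprotein receptors and acyltransferases above 0.

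Of 15 LXR response genes, 10 were tested. At 144 h 6 were lower and 1 higher with TPN, against 28.3% and 24.2% of all genes. SREBF1, the lipogenic factor that LXR switches on, was 16.9 to 17.6 FPKM in untreated and 14.4 to 15.3 FPKM in TPN libraries at 24 h, and 13.4 to 14.8 and 10.0 to 10.6 FPKM at 144 h. It fell by 0.21 at 24 h (limma adjusted p = 0.00875) and by 0.42 at 144 h (adjusted p = 4.90e-06). SCD, the stearoyl-CoA desaturase, fell by 0.30 and MLXIPL, the carbohydrate response factor ChREBP, by 0.39 at 144 h (adjusted p = 6.20e-06 and 7.57e-06). APOE, abundant at means between 748 and 804 FPKM, was not called at either time (log2 fold change -0.049 and 0.014, adjusted p = 0.439 and 0.766). ABCG1, an LXR target that exports sterol from macrophages, was listed at between 0 and 0.02 FPKM and was not detectable at this depth, so it gave no fold.

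Of 10 partners and coregulators, 8 were tested. At 144 h 3 were lower and 1 higher, so 50% were called, against 52.5% of all genes. NCOA2, a coactivator, fell by 0.45 (limma adjusted p = 2.94e-05), NCOR1, a corepressor, by 0.17 (adjusted p = 0.00704) and SIRT1, which deacetylates LXR, by 0.15 (adjusted p = 0.0107). None of the 8 was called at 24 h by limma, against 10.5% of all genes, and 1 had an unadjusted p below 0.05.

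Of 10 enzymes of oxysterols and of sterol ligands, 4 were tested. All 4 fell at 144 h, against 28.3% of all genes called lower. LSS, lanosterol synthase, was 37.8 to 40.0 FPKM in untreated and 23.8 to 25.2 FPKM in TPN libraries (log2 fold change -0.66, SE 0.041, limma adjusted p = 1.90e-08). DHCR7, an enzyme late in cholesterol synthesis, fell by 0.23 at 144 h (adjusted p = 8.23e-06). CYP39A1, an oxysterol hydroxylase named after its values were seen, was below the filter on low values and not tested, and it went the other way at 144 h, with 0.21 to 0.40 FPKM in untreated and 0.89 to 1.03 FPKM in TPN libraries.

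Of 17 genes of sterol uptake and transport, 14 were tested. At 144 h 4 were higher and 5 lower, against 24.2% and 28.3% of all genes. SOAT2, which esterifies cholesterol in hepatocytes, was 38.7 to 39.7 FPKM in untreated and 16.9 to 20.7 FPKM in TPN libraries, the largest change among the 57 pathway genes at 144 h (log2 fold change -1.04, SE 0.056, limma adjusted p = 4.81e-09). At 24 h it was 0.098 (adjusted p = 0.316). LIPA, the lysosomal acid lipase, rose by 0.52 at 144 h (adjusted p = 3.91e-08), and NPC1, which passes sterol out of the lysosome, rose by 0.32 at 24 h and by 0.38 at 144 h (adjusted p = 0.000169 and 3.73e-06).

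Some markers of the other cell types also moved between the groups. Of 8 stellate or mesenchymal markers, 7 were tested and 5 were lower with TPN at 144 h, against 28.3% of all genes called lower. DES reached at most 0.09 FPKM in any library. At 144 h the means in untreated and TPN spheroids were low for COL1A2 (0.27 and 0.09 FPKM) and COL3A1 (0.50 and 0.13 FPKM). The sum of the 8 was 94.9 to 100.5 FPKM in untreated and 82.0 to 86.1 FPKM in TPN libraries at 24 h. At 144 h it was 53.9 to 59.3 and 48.6 to 50.9 FPKM. ACTA2, smooth muscle actin, made up most of this sum in every group. Its means in untreated and TPN spheroids were 57.8 and 47.3 FPKM at 24 h and 47.9 and 45.4 FPKM at 144 h. It was called lower with TPN at 24 h and was not called at 144 h. COL1A1, a collagen of activated stellate cells, had means of 15.1 and 15.1 FPKM at 24 h in the same order. Its means at 144 h were 1.92 and 0.747 FPKM. PDGFRB kept its level over time without TPN, with means of 3.10 and 3.08 FPKM, and was called lower with TPN at 144 h. Of the macrophage markers PTPRC, MRC1, MARCO and CSF1R, and of the endothelial markers PECAM1, VWF, CDH5 and KDR, none exceeded 0.26 FPKM in any library. Macrophage markers summed to 49.0 to 49.5 FPKM in untreated and 63.2 to 66.2 FPKM in TPN libraries at 144 h. CD68, a lysosomal protein, made up most of this sum and was higher with TPN (means 47.85 and 63.73 FPKM, log2 fold change 0.41). CD14, the other macrophage marker tested, had means of 1.34 and 1.25 FPKM at 144 h and was not called at either time. Of 4 cholangiocyte markers KRT7 reached at most 0.09 FPKM. The sum of the 4 at 144 h was 301 to 313 FPKM in untreated and 271 to 280.1 FPKM in TPN libraries. Of the 3 tested, only KRT19 was called lower at 144 h, with means of 98.5 and 68.7 FPKM, against 28.3% of all genes. EPCAM (131.9 and 132 FPKM) and SOX9 (76.83 and 74.75 FPKM) were not called. The part of these markers in the results for the members was not tested.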

How the data were processed

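RNA was sequenced from 12 libraries on the DNBSEQ platform, 3 per group. Per the paper's methods and the submitters' processing notes, the authors filtered reads with SOAPnuke, mapped them to GRCh38.p13 with HISAT2 v2.0.4 and to transcripts with Bowtie2 v2.2.5, and calculated FPKM values with RSEM, which were deposited rounded to 2 decimals. The authors' own differential expression used DESeq2 and was not used here. The replicates are independent experiments per the paper.

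Values were analysed as log2(FPKM + 0.1) in the 11713 genes whose FPKM averaged 0.5 or more over all libraries, with limma 3.58.1 in R 4.3.3 (lmFit for the 4 groups, eBayes with trend) and Benjamini-Hochberg adjustment over all genes. Within each time, members were also compared by an exact permutation test (20 arrangements). The 20 wrapped annotation lines without values were left out. Depth was estimated from 1033 low values in 276 short genes with 1 transcript in GENCODE v44, of which 90.2% lay within 0.15 of a whole number of fragments at 1.84e+07 fragments, with 265 bases taken off each transcript. The authors' transcript lengths may differ, and counting errors cover counting only. Strands are from GENCODE v44, and promoter windows from RefSeq (GRCh38.p14). Python 3.11.15 with numpy 2.4.6, pandas 2.3.3 and matplotlib 3.10.9 was used.

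The members, lists and alternatives were chosen with earlier results of these data known. Of the other pathway genes, those past both thresholds with TPN at either time were named, filled up to 3 per list by the smallest adjusted p at 144 h, with SREBF1, ABCG1 and APOE in any case, and the gene most like each member. Results of a few genes that this rule names are left out here. As alternatives, the pseudocount was set to 1 or 0.01, the filter was dropped or raised to an average of 5 FPKM, the libraries were rescaled (equal sums, median ratio, quantiles), the fit lost its trend, held the compared libraries alone or gained the replicate block, and every library was left out once.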

Additional observations from a re-analysis of the deposited data

Results flagged for a closer look

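By the interaction in limma, 2 of the 8 members responded to TPN by different amounts at the 2 times. So did 17 of the named pathway genes. Most of the named genes were picked by their change at 144 h, so this number is a description. Over all 57 pathway genes tested, 25 had an interaction (43.9%), against 30.4% of all genes. Each value is the log2 response of 144 h less that of 24 h. NR1H2 had 0.47 (adjusted p = 0.00177) and LPCAT3 0.15 (adjusted p = 0.0474). NR1H2 was higher with TPN in 3 of 3 libraries at 144 h and overlapped with untreated at 24 h.

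Among genes with the higher change at 144 h, CD36 had 0.70, LIPA 0.52, VLDLR 0.51, SCARB2 0.24 and LPCAT1 0.17. Among those with the lower change, SOAT2 had -1.14, LSS -0.56, FOXO1 -0.51, NR0B2 -0.43, NR1H4 -0.40 and GATA4 -0.34. The others were NCOA2 at -0.30, MLXIPL at -0.28, SCD at -0.25, LCAT at -0.25, SREBF1 at -0.20 and DHCR7 at -0.20. The interaction of SREBF1 was lost in 6 of 21 alternative settings and that of LCAT in 10 of 21 (highest adjusted p = 0.0694 and 0.0871).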

How the results depend on the processing

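Each member's log2 fold change in the TPN comparisons, the interaction and both time comparisons was recomputed in up to 22 alternative settings, 862 values in all, of which 808 kept their direction and side of the threshold. In 25 the sign turned, none of them in a called result. With libraries scaled to the same FPKM sum, LPCAT3 at 24 h was -0.0053, NR1H3 at 144 h -0.00796 and NR1H2 in the TPN time comparison -0.00188. ABCG5 in the untreated time comparison was 0.14 with median ratio scaling and 0.090 with quantile normalization. Leaving out 1 library gave -0.032 to 0.026 for NR1H3 at 24 h, -0.00195 to 0.015 at 144 h and -0.019 to 0.039 for its interaction, -0.088 to 0.033 for the ABCA1 interaction, -0.100 to 0.014 for ABCG5 at 24 h -0.014 to 0.039 for LPCAT3 at 24 h and -0.036 to 0.086 for NR1H2 in the TPN time comparison. The causes were not tested.

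The call at 24 h went from 1 to 0 members with the filter at 5 FPKM, because ABCG8 was then not tested. The count of members with an interaction was 1 with no filter on low values, with median ratio scaling and without trend, and 1 to 2 when leaving out 1 library, LPCAT3 being the gene lost. Leaving out 1 library gave 5 to 6 called members at 144 h. With group means taken off the log2 values, same-numbered untreated and TPN libraries correlated at -0.083 to 0.103 over genes at 24 h. At 144 h these deviations correlated at -0.013 to 0.056, and not every library correlated best with its own number. With the replicate block, 1 member was called at 24 h, 6 at 144 h and 2 in the interaction, and 13 and 42 pathway genes (14 and 43 without it), so the block changed none of these by more than 1.5 times. All 50 called values of the named pathway genes, at 24 h, 144 h and in the interaction, kept their sign in these alternatives, and 5 lost the call in some (LPCAT1 and LCAT at 24 h, NR5A2 at 144 h and the interactions of SREBF1 and LCAT). Depth limits MYLIP most.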
